A study of Mus musculus with 6 samples.

Results

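The mouse genes named Zfp followed by a number are described here as they were measured on Illumina MouseWG-6 BeadChip arrays after a short hairpin RNA against Chd4 (shChd4). The platform annotation holds 324 such genes once Zfp42, Zfp281, Zfp352 and the Zfp36 symbols are left out. Of these, 181 had a brightest probe detected at p under 0.05 on at least 3 of the 6 arrays and were tested among 9807 genes in all, and 143 were not tested. The choice rests on detection, so a gene near background entered only if its transcript was visible on enough arrays.

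Most Zfp genes encode proteins with arrays of C2H2 zinc fingers that read DNA sequence, and many of those also carry a KRAB domain. KRAB zinc finger proteins recruit Trim28, the histone H3 lysine 9 methyltransferase Setdb1 and HP1 proteins, and in embryonic stem (ES) cells this machinery silences retroelements and protects imprints. Chd4 is the ATPase of NuRD, which joins nucleosome remodelling to histone deacetylation and is recruited by several zinc finger proteins. The symbol Zfp was given to genes of many kinds, among them RNA-binding proteins, ubiquitin ligases and a LIM-domain protein, so the set is a family by name and not a single pathway.

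Total RNA came from mouse ES cells electroporated with a pHYPER vector, 3 samples with the shRNA against Chd4 and 3 labelled only as control. Both groups were grown in 15% serum with LIF on fibroblast feeders treated with mitomycin C, and puromycin was given for 48 h starting 24 h after transfection. The labels do not say whether feeders were removed, what the control vector carries, or whether samples came from separate cultures. The p-values here therefore speak only of the spread among these arrays, some of which may be technical. By the titles, all shChd4 samples shared 1 BeadChip and all controls a different one, and an effect of the chip cannot be told apart from that of the shRNA.

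The Chd4 probe used for the test read 8.06, 7.91 and 8.33 (log2 intensity) on shChd4 arrays and 10.13, 10.13 and 10.17 on control arrays. The difference of -2.04 ± 0.16 (SE, n = 3 per group) had a limma adjusted p of 6.39e-06. Detected probes made up 37.7% to 38.7% of 45281 on shChd4 arrays and 34.9% to 35.6% on control arrays. Of 22 fibroblast markers, 17 were tested and 15 of those rose, with a median log2 difference of 2.61. Their summed normalised intensity was 14656 to 19855 on shChd4 arrays and 2393 to 3649 on control arrays, where Col1a1, Lum and Pdgfrb were not detected. Of 12 ES cell markers, 6 fell and 0 rose. ES and feeder cells cannot be told apart in bulk RNA, nor fewer cells from less RNA per cell, and the part of these shifts in the Zfp results below was not tested.

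The Zfp genes as a set moved little. They were also dimmer, with a mean log2 intensity per array of 6.66 to 6.79 against 7.54 to 7.62 for all genes tested. The shares here and below were not matched for intensity, and the part of this in them was not tested. Of the 181 tested, 16 were higher after shChd4 (8.84%) where 19.9% of all genes were higher, and 35 were lower (19.3%) where 18.2% of all genes were lower. Calls of either direction covered 38.2% of all genes. The share of lower Zfp genes was thus near that of the array, while the share of higher ones was less than it. With median scaling in place of quantile normalisation the split was 20 higher (11.0%) and 24 lower (13.3%), where 21.0% of all genes were higher and 16.1% lower. The median log2 difference was -0.12 over Zfp genes and -0.05 over all genes tested. Differences below 0 were found for 114 of the 181 (63.0%) against 53.7% of all genes. Single arrays mattered for the smaller calls: 10 Zfp genes were higher without shChd4 replicate 3 and 10 without control replicate 1. Among all genes tested, too, fewer were higher in each of these fits than with all arrays.

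Most changes were small. The log2 difference lay within 0.5 of 0 for 132 Zfp genes (72.9%) and for 62.2% of all genes. A change of at least 2-fold that also passed the test was seen for 3 higher and 3 lower Zfp genes (3.31%), where 12.6% of all genes had one. The higher ones were Zfp703, Zfp607a and Zfp362, and the lower ones Zfp692, Zfp423 and Zfp961. Above a log2 difference of 1 lay 1.66% of Zfp genes and 8.82% of all genes. The count of 2-fold changes depended on the processing: it was 1 without background correction, 12 without shChd4 replicate 2 and 10 without control replicate 3. These are counts of Zfp genes only, and do not show how all genes moved under the same settings.

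**Figure D1:**
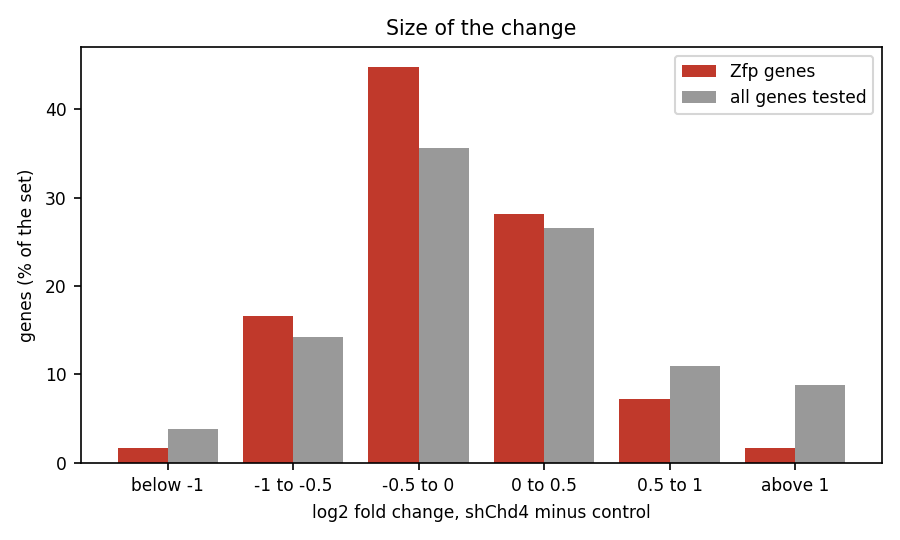
Share of Zfp genes (red, n = 181) and of all genes tested (grey, n = 9807) in each class of log2 difference, shChd4 minus control. The Zfp genes fill the class from -0.5 to 0 with 44.8% of their number against 35.7%, and the class above 1 with 1.66% against 8.82%.

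Complete separation of the groups followed the same pattern. All shChd4 arrays were above all control arrays for 25 Zfp genes (13.8%), where 25.1% of all genes separated in that direction. All shChd4 arrays were below all control arrays for 46 Zfp genes (25.4%), where 25.3% of all genes did so. The 130 genes that did not pass the test had differences from -0.56 to 0.61, with a median SE of 0.18, and 127 of them lay within 0.5 of 0. Without adjustment, 68 of the 181 Zfp genes had a limma p under 0.05, where 4637 of all 9807 genes tested did.

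**Figure D2:**
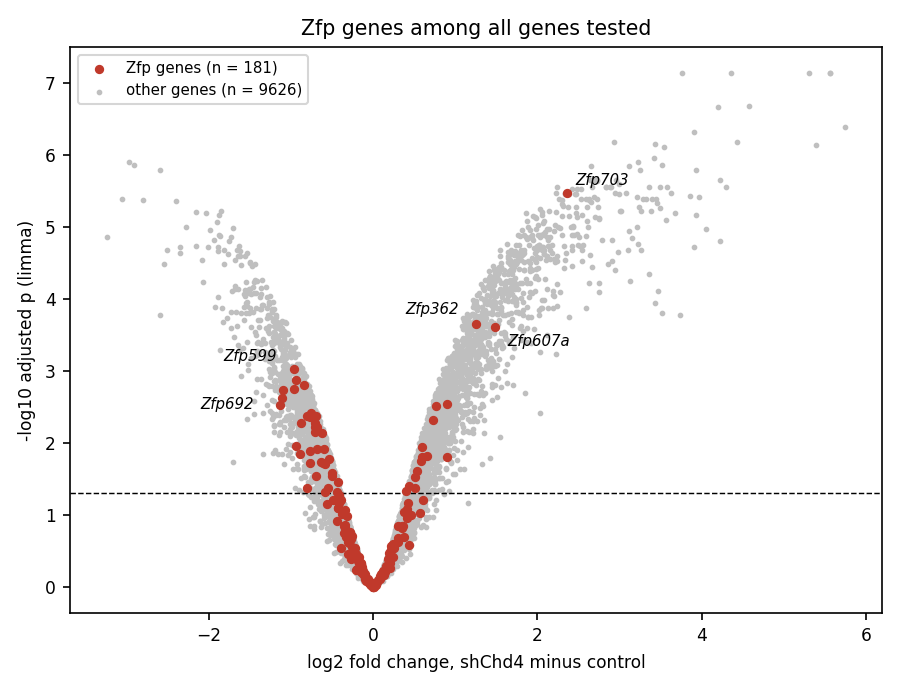
Log2 difference (shChd4 minus control, x axis) against -log10 of the limma adjusted p (y axis) for 181 Zfp genes (red) and 9626 other genes tested (grey); the dashed line marks an adjusted p of 0.05. Zfp703 stands at 2.36 and the remaining Zfp genes lie between -1.14 and 1.48.

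Filtering on detection shaped this set at its lower edge. Detection was complete, on all 6 arrays, for 146 Zfp genes, of which 11 were higher (7.53%) and 31 lower (21.2%). Of all genes detected on all 6 arrays, 17.4% were higher and 20.6% lower. The median difference was -0.14 for these Zfp genes and -0.09 for all such genes. A further 14 passed on exactly 3 arrays, with differences from -0.44 for Zfp951 to 2.36 for Zfp703. Just outside the threshold, 13 Zfp genes were detected on exactly 2 arrays, with differences from -0.51 for Zfp866 to 0.31 for Zfp429, and 109 on none. The tested genes Zfp703, Zfp521 and Zfp385a were detected on all shChd4 arrays and on no control array; they entered through the group where they were high, so the filter itself favours a positive difference for them. No Zfp gene entered through control arrays alone. Per array, 186, 176 and 177 Zfp genes were detected after shChd4 and 175, 177 and 174 in controls.

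The largest rise belonged to Zfp703, a cofactor of the NET family whose human counterpart is an oncogene of luminal breast cancer. It read 7.22, 7.00 and 7.05 on shChd4 arrays and 4.50, 4.86 and 4.84 on control arrays, where its probe was not well above background. The probe passed the detection filter only through shChd4 arrays. The level after shChd4 was at least 4.22-fold higher. Such a bound sets the shChd4 mean against the lowest detected signal of each control array, or the probe's own signal where that was higher. The log2 difference of 2.36 was taken against control readings that were not detected, and the limma adjusted p of 3.41e-06 belongs to it and not to the bound. By the brightest probe of each gene this was the largest difference among Zfp genes. Its call held in all 15 alternatives that tested it, though the log2 difference fell to 0.87 without background correction. The other Zfp703 probes were detected on no array. The fibroblast markers rose on the same arrays.

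Zfp607a was next. It read 9.24, 9.16 and 8.54 on shChd4 arrays and 7.64, 7.55 and 7.31 on control arrays, a log2 difference of 1.48 ± 0.20 (SE; adjusted p = 0.000247). A second Zfp607a probe read 5.56, 5.62 and 5.74 after shChd4 and 5.41, 5.19 and 5.51 in controls, a difference of only 0.27. Averaging the detected probes gave 0.88. Its namesake Zfp607b read 5.48, 5.59 and 5.85 on shChd4 arrays and 5.20, 4.88 and 5.10 on control arrays, a difference of 0.58 ± 0.17 (adjusted p = 0.0176). Both genes were thus higher on every shChd4 array, but their transcripts may share probe sequence, which leaves it uncertain how much of each signal belongs to which gene. The Zfp607b call was lost without background correction, with the authors' values, with an offset of 50 and without shChd4 replicate 3 or control replicate 2.

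Zfp362 read 7.92, 7.64 and 7.76 on shChd4 arrays and 6.53, 6.75 and 6.30 on control arrays, a difference of 1.25 ± 0.17 (adjusted p = 0.000224). Zfp750, whose human counterpart drives epidermal differentiation, read 6.52, 5.63 and 6.18 after shChd4 and 5.56, 4.79 and 5.28 in controls. Its groups barely separated, at 5.63 against 5.56, and its difference of 0.90 ± 0.25 (adjusted p = 0.0158) was no longer called without shChd4 replicate 1 or control replicate 2, nor without background correction or the detection filter. Zfp768 read 5.52, 5.64 and 5.87 after shChd4 and 5.04, 4.50 and 4.81 in controls, a difference of 0.89 ± 0.18 (adjusted p = 0.0029). Its probe was detected on 1 control array.

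Zfp746, also called PARIS, represses the gene of the metabolic coactivator PGC-1α and is a substrate of parkin. It read 7.24, 7.55 and 7.50 after shChd4 and 6.79, 6.54 and 6.77 in controls, a difference of 0.73 ± 0.16 (adjusted p = 0.00481). Zfp821 differed by 0.77 ± 0.16 (adjusted p = 0.00307), with 6.35, 6.26 and 6.59 after shChd4 against 5.74, 5.60 and 5.57 in controls. Zfp46 differed by 0.59 ± 0.15 (adjusted p = 0.0115), with 8.24, 8.04 and 8.19 after shChd4 against 7.48, 7.49 and 7.73 in controls. These rises, like those of Zfp607a, Zfp362 and Zfp768, passed the test under every alternative that could test them. So did that of Zfp703, which the detection filter favoured.

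The remaining rises were smaller and less stable. Zfp637 read 8.65, 8.16 and 8.39 after shChd4 and 7.72, 7.84 and 7.85 in controls (difference 0.60, adjusted p = 0.0159), and its call was lost without shChd4 replicate 1 or control replicate 1. Zfp523 read 9.25, 9.25 and 9.50 after shChd4 and 8.60, 8.99 and 8.80 in controls (difference 0.54, adjusted p = 0.0248), and was not called when all its detected probes were averaged or without shChd4 replicate 3, control replicate 1 or control replicate 3. Zfp707, Zfp869, Zfp334 and Zfp12 also rose, with differences of 0.40 to 0.51, and Zfp521 is described below. Of 16 alternatives, 13 kept the call of Zfp707, 5 that of Zfp869, 10 that of Zfp334 and 8 that of Zfp12. A further detected Zfp334 probe differed by only 0.01. Among the 16 genes that rose, shChd4 replicate 2 was the lowest of the shChd4 arrays for 10 (62.5%), where it was lowest for 56.6% of all genes that rose. That array also had the lowest summed fibroblast marker signal of its group, and whether this accounts for the order was not tested.

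**Figure D3:**
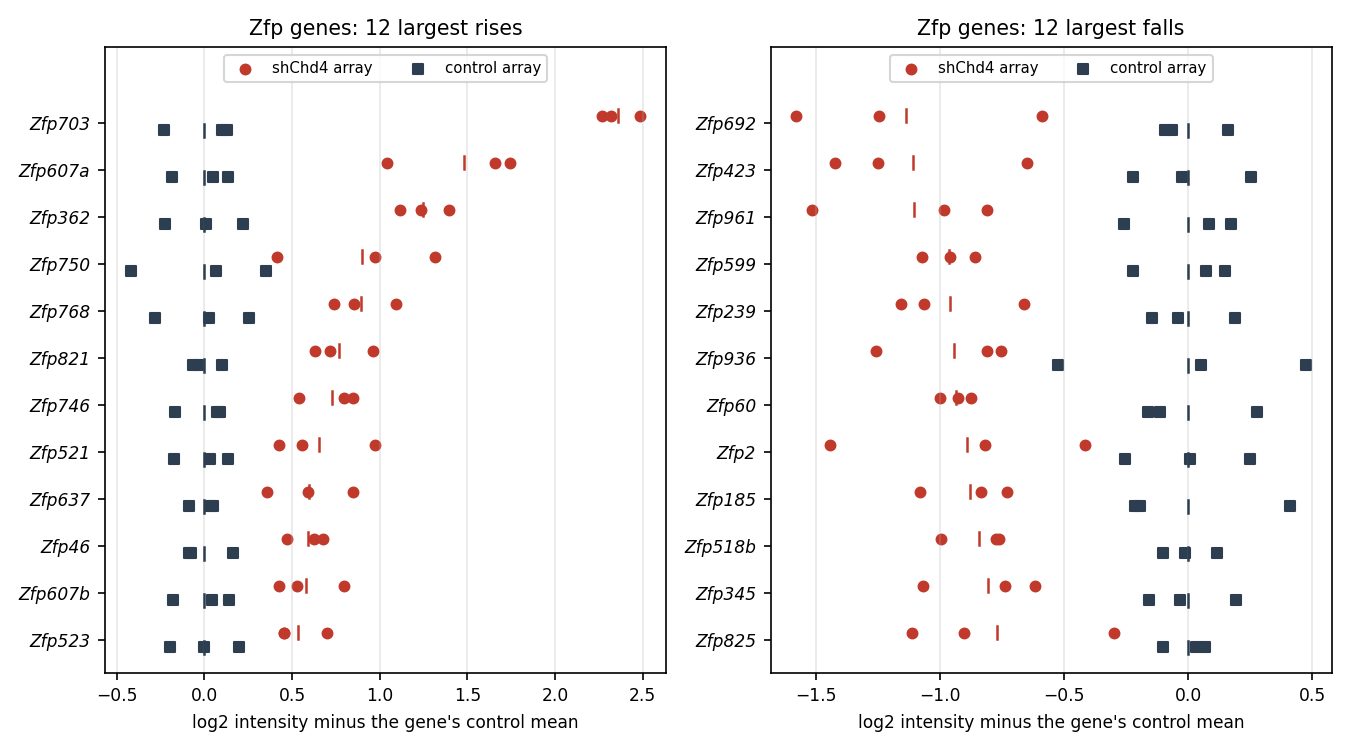
Log2 intensity of the 12 largest rises (left) and 12 largest falls (right) among Zfp genes, each point an array and each value given relative to that gene's control mean; red circles are shChd4 arrays, dark squares control arrays, and short bars group means. The groups of each gene shown do not overlap, by the rule that chose them, and Zfp703 stands apart with shChd4 arrays near 2.36 above its controls.

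The largest fall was that of Zfp692, which read 6.82, 6.17 and 5.83 on shChd4 arrays and 7.57, 7.35 and 7.32 on control arrays. The difference was -1.14 ± 0.23 (SE; adjusted p = 0.00294). Spread was wide after shChd4, with an SD of 0.50, and narrow in controls, with an SD of 0.14. Zfp961 read 6.29, 6.12 and 5.58 after shChd4 and 7.18, 6.84 and 7.27 in controls, a difference of -1.10 ± 0.21 (adjusted p = 0.00187). Zfp599 read 5.02, 5.12 and 4.91 after shChd4 and 6.13, 6.06 and 5.76 in controls, a difference of -0.96 ± 0.16 (adjusted p = 0.000941), the smallest p among the falls. All these genes passed in 16 of 16 alternatives.

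Zfp239, also called Mok2, binds both DNA and RNA. It read 6.49, 6.99 and 6.58 after shChd4 and 7.61, 7.84 and 7.50 in controls, a difference of -0.96 ± 0.18 (adjusted p = 0.00181). Zfp60 read 6.38, 6.33 and 6.26 after shChd4 and 7.14, 7.09 and 7.53 in controls, a difference of -0.93 ± 0.17 (adjusted p = 0.00136). A second Zfp60 probe, dim and detected on only 3 arrays, differed by 0.10, and averaging both probes ended the call at -0.42. The fall of Zfp60 therefore rests on 1 of its probes.

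Zfp518b, whose human counterpart has been found with the methyltransferase G9a, read 9.73, 9.97 and 9.96 after shChd4 and 10.63, 10.84 and 10.71 in controls, a difference of -0.84 ± 0.15 (adjusted p = 0.00158). Across the alternatives its difference stayed between -0.91 and -0.77. Zfp185, a LIM-domain protein linked to the actin cytoskeleton in human cells, read 4.83, 5.18 and 5.07 after shChd4 and 5.69, 6.32 and 5.71 in controls. Its difference of -0.88 (adjusted p = 0.00524) lies near the detection limit, since its probe was detected on 2 shChd4 arrays.

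Among further falls of similar size, several were less firmly placed. Zfp936 read 4.56, 5.00 and 5.06 after shChd4 and 6.29, 5.87 and 5.29 in controls (difference -0.94, adjusted p = 0.0109). Zfp2 read 5.65, 6.68 and 6.27 after shChd4 and 7.10, 7.34 and 6.84 in controls (difference -0.89, adjusted p = 0.0145). Both lost the call without shChd4 replicate 1. Zfp936 also lost it without background correction, and Zfp2 without control replicate 2 or the detection filter. Zfp345 and Zfp825 differed by -0.81 and -0.77. The Zfp345 call was kept in 16 of 16 alternatives, and the Zfp825 call was lost only without shChd4 replicate 3. The other 23 falls ranged from -0.81 to -0.43. Zfp661, at -0.81, had overlapping groups. Compared with the values here, log2 differences shrank by over 1.5 times without background correction for 8 of the 12 largest rises and 11 of the 12 largest falls. None of these 24 changed direction, and 9 of the rises and 11 of the falls still passed.

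By known role, 3 of 7 listed Zfp genes that silence imprints and retroelements were tested and 0 passed, where 38.2% of all genes passed. So few genes do not speak for the class. Zfp568, which silences a placental promoter of Igf2, read 5.71, 6.91 and 5.97 on shChd4 arrays and 6.88, 6.52 and 6.38 on control arrays (difference -0.40 ± 0.28, adjusted p = 0.287). shChd4 replicate 2 stood above the controls and the other shChd4 arrays below them; without that array the difference was -0.75 and was called. Zfp809, which represses retroviruses through their primer binding site, read 8.50, 7.83 and 8.00 after shChd4 and 7.93, 8.11 and 7.95 in controls (difference 0.11, adjusted p = 0.671). Zfp819, which restrains retroelements in pluripotent cells, read 8.03, 7.87 and 7.07 after shChd4 and 7.61, 7.41 and 6.65 in controls (difference 0.44 ± 0.29, adjusted p = 0.262). All these groups overlapped. Zfp445, a guardian of imprints, was detected on 2 arrays and was not tested.

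Partners and regulators of repressor complexes were measured for 10 of 11 listed genes, and 0 passed in either direction, where 38.2% of all genes passed. Zfp410, which in mouse and human cells activates Chd4 itself, read 7.11, 6.88 and 6.80 after shChd4 and 6.73, 6.56 and 6.57 in controls. Its groups did not overlap, but the difference of 0.31 ± 0.16 had an adjusted p of 0.144, and further probes detected on all 6 arrays differed by -0.07 and 0.12. Zfp827, whose human counterpart recruits NuRD to telomeres, read 5.46, 5.01 and 5.41 after shChd4 and 6.13, 6.10 and 5.35 in controls. Its difference was -0.56 ± 0.23 (adjusted p = 0.0713).

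Zfp592 and Zfp532, whose human counterparts belong to a module with Zmynd8 that binds NuRD, differed by -0.15 and 0.20. Zfp512b, a NuRD-binding protein in human cells, differed by -0.11. The readings of these genes overlapped between groups. Zfp644, which brings G9a to chromatin, differed by -0.04, and Zfp217, a partner of CtBP and Lsd1, by -0.30. The Zfp217 difference lies near the detection limit, since its probe was detected on 1 shChd4 array and 2 control arrays. Zfp516, an activator of the brown fat gene Ucp1, read 6.47, 5.98 and 6.37 after shChd4 and 5.76, 5.91 and 5.86 in controls (difference 0.43 ± 0.17, adjusted p = 0.0677). The SUMO ligase Zfp451 differed by -0.26 and the Sox9 partner Zfp219 by 0.23, each with groups that did not overlap and adjusted p of 0.196 and 0.269. A second Zfp219 probe, detected on all 6 arrays, differed by -0.04.

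Genes with a role in ES cell self-renewal were represented by Zfp296 and Zfp207. Zfp296, a factor of pluripotent cells that aids reprogramming, read 9.67, 9.83 and 9.74 after shChd4 and 10.18, 10.69 and 10.51 in controls. Every shChd4 array was lower, and the difference of -0.71 ± 0.17 (adjusted p = 0.0071) passed in 16 of 16 alternatives. Zfp207, also called BuGZ, serves spindle assembly and splicing. It read 9.68, 9.34 and 9.54 after shChd4 and 9.94, 9.91 and 9.95 in controls, and its difference of -0.41 ± 0.15 fell just short (adjusted p = 0.0538); it passed in 8 of 16 alternatives. A second Zfp207 probe differed by 0.01. The 12 ES cell markers averaged 9.81, 10.30 and 9.75 on shChd4 arrays and 10.73, 10.66 and 10.58 on control arrays; their part in the fall of Zfp296 was not tested.

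Of 7 listed mesenchymal and adipocyte regulators 4 were tested, and Zfp703, Zfp521 and Zfp385a among them entered only through their detection on shChd4 arrays. Zfp423, which commits cells to the preadipocyte fate and works with Ebf and Smad factors, read 5.19, 5.96 and 5.36 on shChd4 arrays and 6.39, 6.58 and 6.86 on control arrays. It fell by 1.11 ± 0.22 on the log2 scale (adjusted p = 0.00241), on every shChd4 array and in 16 of 16 alternatives. Zfp521, an Ebf1 antagonist that carries a NuRD-binding motif and restrains adipogenesis, read 5.71, 5.16 and 5.29 after shChd4 and 4.87, 4.56 and 4.77 in controls. It was not detected on control arrays, and was at least 1.29-fold higher after shChd4. The limma adjusted p of 0.0155 belongs to the log2 difference of 0.65 against these undetected readings, and not to the bound. That call was lost without background correction, with the authors' values, with an offset of 50 and without shChd4 replicate 1 or control replicate 2. Zfp385a, a p53 cofactor also needed for adipogenesis, read 4.94, 5.07 and 5.44 after shChd4 and 4.82, 4.57 and 4.80 in controls, with an adjusted p of 0.0823. The fibroblast markers averaged 9.04, 8.76 and 9.04 after shChd4 and 6.04, 6.48 and 6.58 in controls, so Zfp703 and Zfp521 moved in the same direction as these markers and Zfp423 in the opposite one; the part of feeder RNA was not tested.

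**Figure D4:**
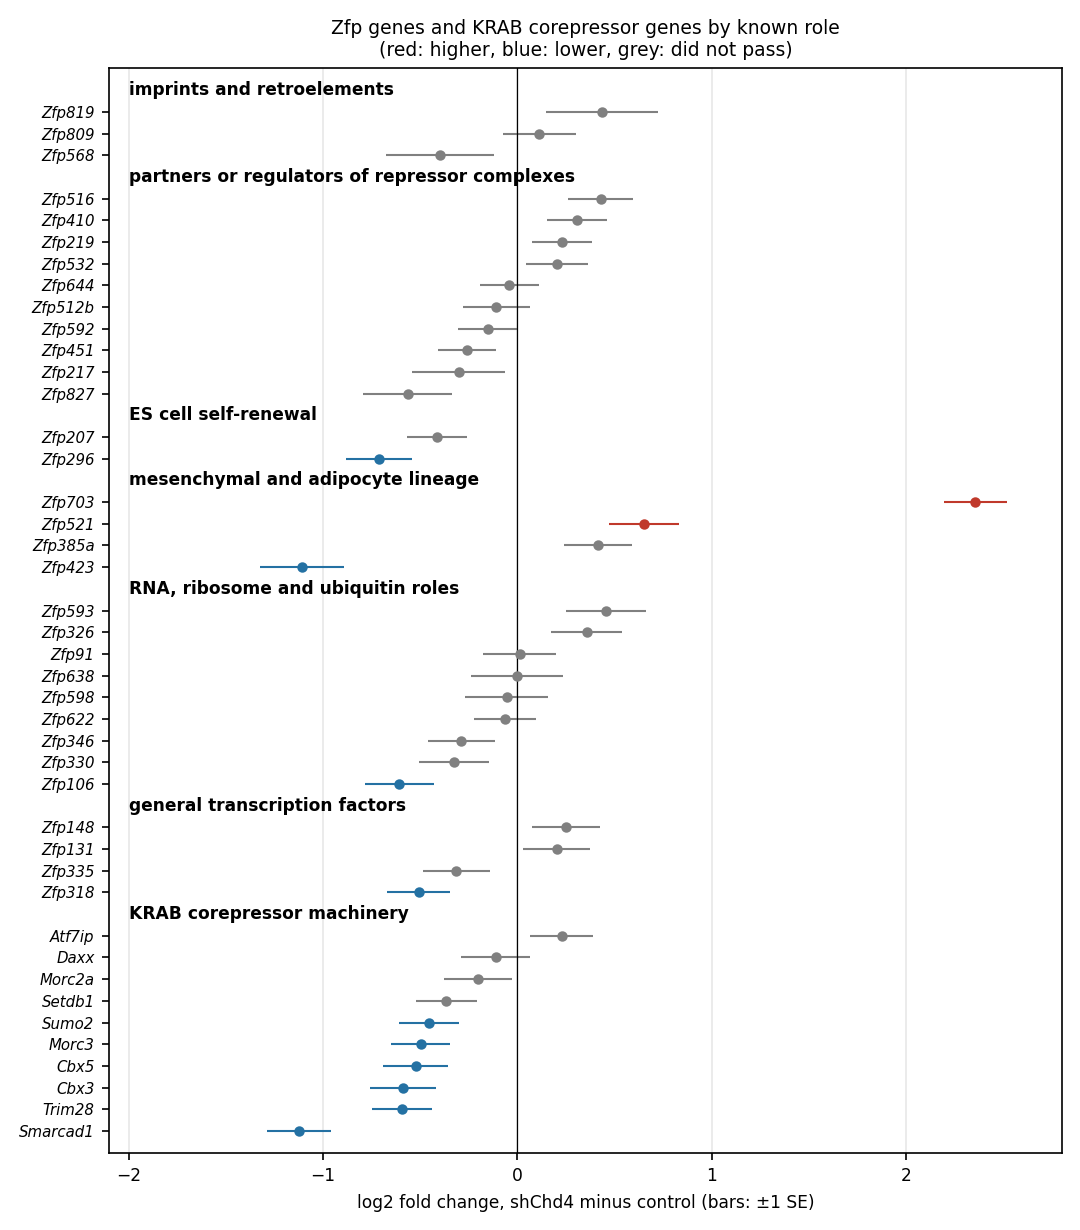
Log2 difference (shChd4 minus control, x axis; bars ±1 SE) of Zfp genes grouped by known role and of the KRAB corepressor genes, with genes higher after shChd4 in red, lower in blue and those that did not pass in grey. The mesenchymal group spans -1.11 for Zfp423 to 2.36 for Zfp703, no repressor partner passed, and 6 of the 10 corepressor genes lie below 0 in blue.

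Among Zfp genes with roles in RNA, ribosomes and ubiquitin, 9 of 10 listed were tested, 1 fell and 0 rose, where 18.2% of all genes fell and 19.9% rose. Zfp106, an RNA-binding protein needed by motor neurons and muscle, read 6.23, 5.91 and 6.01 after shChd4 and 6.93, 6.43 and 6.60 in controls (difference -0.61 ± 0.18, adjusted p = 0.0188). That call was lost with median scaling and without shChd4 replicate 2, shChd4 replicate 3 or control replicate 1. Zfp598, the ubiquitin ligase of collided ribosomes, differed by -0.05. The 60S ribosome factors Zfp622 and Zfp593 differed by -0.06 and 0.46. Both lie near the detection limit, with Zfp622 detected on 2 control arrays and Zfp593 on 1. The splicing factor Zfp326, the double-stranded RNA binder Zfp346 and the ubiquitin ligase Zfp91 differed by 0.36, -0.29 and 0.01, and Zfp638, which silences unintegrated retroviral DNA in human cells, by 0.00. None of these passed. Of 4 tested genes in the list headed general transcription factors, a name used loosely and not for the basal machinery, Zfp318 fell. Zfp318, known for its part in IgD expression in B cells, read 7.22, 7.64 and 7.53 after shChd4 and 7.94, 8.04 and 7.93 in controls (difference -0.51 ± 0.16, adjusted p = 0.0292). It was not called with median scaling, without shChd4 replicate 1 or without any 1 of the control arrays. Zfp148, Zfp131 and Zfp335 differed by 0.25, 0.20 and -0.31 and did not pass.

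The nucleolar gene Zfp330 gave the widest disagreement between probes. Its brightest probe read 9.03, 8.43 and 8.89 on shChd4 arrays and 9.20, 9.12 and 9.01 on control arrays, a difference of -0.33 (adjusted p = 0.182). A second probe read 8.02, 6.93 and 7.55 after shChd4 and 4.42, 4.87 and 5.27 in controls, a difference of 2.65, and was detected on 1 control array. The probes therefore give opposite directions, and no direction is given for this gene. In total 55 Zfp genes had a further detected probe, and for 14 of them such a probe differed in sign from the tested probe or by more than 1 on the log2 scale. For Zfp276, called lower at -0.71, the further probe differed by 0.17. Zfp genes of 1 cluster can be close in sequence, and how specific each probe is was not tested.

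The corepressors that KRAB zinc finger proteins use were followed beside them. Of 16 listed genes, 10 were tested, 6 fell and 0 rose, where 18.2% of all genes fell, with a median difference of -0.48. Trim28, the scaffold bound by KRAB domains, read 12.93, 13.18 and 13.10 on shChd4 arrays and 13.52, 13.77 and 13.69 on control arrays (difference -0.59 ± 0.16, adjusted p = 0.0112). Smarcad1, a nucleosome remodeller that binds Trim28, read 8.30, 8.58 and 8.30 after shChd4 and 9.61, 9.64 and 9.30 in controls (difference -1.12 ± 0.17, adjusted p = 0.000403). The HP1 genes Cbx3 and Cbx5 fell by 0.59 and 0.52, Morc3 fell by 0.50 and Sumo2 fell by 0.46. Setdb1 read 7.95, 8.18 and 8.15 after shChd4 and 8.48, 8.30 and 8.59 in controls, a difference of -0.37 with an adjusted p of 0.088. Atf7ip, a cofactor of Setdb1, and Morc2a and Daxx did not pass.

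Other zinc finger families were counted by their prefix. Of 38 Zbtb genes in the annotation, 23 were tested, 1 rose (4.35%) and 6 fell (26.1%), with a median of -0.13. Over all genes tested, 19.9% rose and 18.2% fell. The prefix also takes in Zbtb8os, named for its place opposite Zbtb8a and not for a domain, which was among those that fell. Of 20 Zscan and Zkscan genes, 12 were tested, 0 rose and 2 fell (16.7%), with a median of -0.21.

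**Figure D5:**
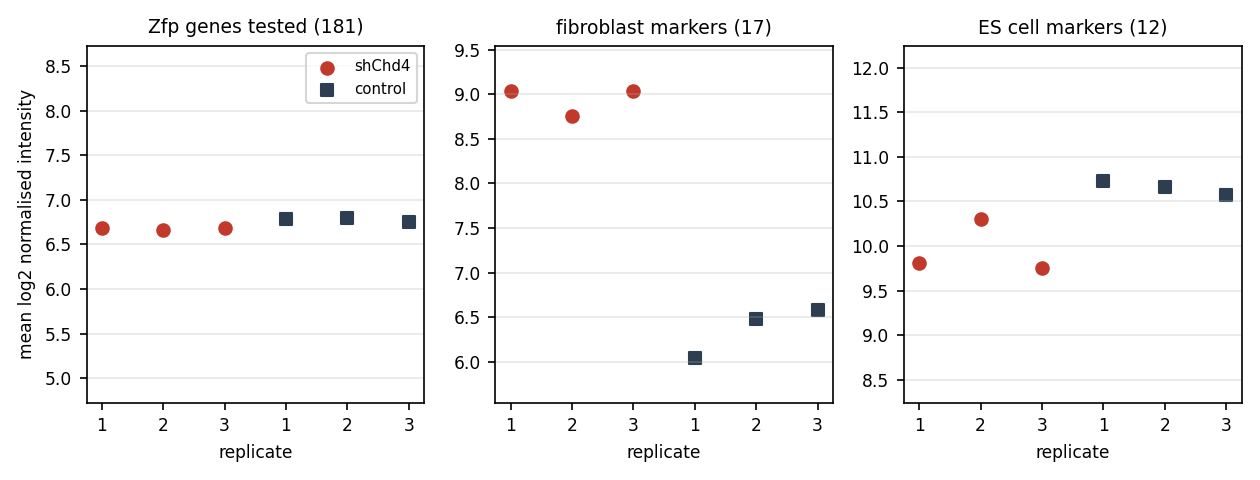
Mean log2 normalised intensity on each array (x axis, replicate number) of the 181 Zfp genes, 17 fibroblast markers and 12 ES cell markers, with shChd4 arrays as red circles and control arrays as dark squares; each y axis spans the same width. The Zfp mean stays within 6.66 to 6.69 after shChd4 and 6.75 to 6.79 in controls, while the fibroblast markers stand at 8.76 to 9.04 after shChd4 and 6.04 to 6.58 in controls.

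Zfp genes lie in clusters, and 48 of the tested genes are on chromosome 7. In the RefSeq gene order of assembly GRCm38.p6, 46 of the 181 stood beside another tested Zfp gene with no protein-coding gene between, in 19 runs. The runs of 3 or more were Zfp398, Zfp282, Zfp212, Zfp956, Zfp777 and Zfp746 on chromosome 6; Zfp874b, Zfp58, Zfp87 and Zfp748 on chromosome 13; Zfp397, Zfp35 and Zfp24 on chromosome 18; and Zfp84, Zfp30 and Zfp790 on chromosome 7. The chromosome 6 run held 1 rise, Zfp746, and the chromosome 13 run 1 fall, Zfp58 at -0.77; the remaining runs of 3 held no call. Neighbours often differed in sign. Of 27 adjacent pairs, 12 had differences of the same sign (44.4%), where 53.1% of all pairs of tested Zfp genes did. Neighbours were called in opposite directions for 2 pairs: Zfp637 was higher and Zfp239 lower, and Zfp607b was higher and Zfp60 lower. Of these calls, only that of Zfp239 held in every alternative, as given above for each gene.

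Promoter sequence was examined for the 146 tested Zfp genes with a RefSeq window, taken as the 250 bases before the annotated start in GRCm38.p6. The windows printed are those of the neighbouring pair Zfp607b and Zfp60 that were called in opposite directions, of Zfp607a beside its namesake, and of the deep falls Zfp692 and Zfp961. They run 5′ to 3′ in lower case on the plus strand, and capitals mark the letters of a motif that was searched.

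The window of Zfp607a is chr7:27860335-27860584, that of Zfp607b chr7:27674411-27674660, that of Zfp60 chr7:27731159-27731408, that of Zfp692 chr11:58306819-58307068 and that of Zfp961 chr8:71950816-71951065.
Zfp607a: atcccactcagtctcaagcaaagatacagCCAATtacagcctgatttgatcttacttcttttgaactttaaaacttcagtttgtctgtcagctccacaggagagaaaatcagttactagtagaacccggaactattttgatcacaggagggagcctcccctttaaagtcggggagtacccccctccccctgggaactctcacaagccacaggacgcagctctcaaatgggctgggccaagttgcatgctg
Zfp607b: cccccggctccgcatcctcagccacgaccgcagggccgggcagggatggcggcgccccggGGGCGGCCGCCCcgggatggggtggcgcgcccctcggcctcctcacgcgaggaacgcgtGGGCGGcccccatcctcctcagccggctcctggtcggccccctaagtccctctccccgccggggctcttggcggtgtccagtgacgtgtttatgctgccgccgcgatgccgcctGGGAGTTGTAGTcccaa
Zfp60: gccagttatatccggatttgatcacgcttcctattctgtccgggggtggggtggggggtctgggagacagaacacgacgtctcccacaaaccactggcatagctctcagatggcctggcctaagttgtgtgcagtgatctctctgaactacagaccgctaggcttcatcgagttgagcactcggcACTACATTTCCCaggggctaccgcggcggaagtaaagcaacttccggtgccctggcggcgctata
Zfp692: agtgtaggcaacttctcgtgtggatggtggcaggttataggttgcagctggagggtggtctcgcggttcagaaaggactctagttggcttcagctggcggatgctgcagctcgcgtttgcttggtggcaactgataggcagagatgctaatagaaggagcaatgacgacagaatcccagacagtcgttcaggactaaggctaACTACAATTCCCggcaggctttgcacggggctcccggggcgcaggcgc
Zfp961: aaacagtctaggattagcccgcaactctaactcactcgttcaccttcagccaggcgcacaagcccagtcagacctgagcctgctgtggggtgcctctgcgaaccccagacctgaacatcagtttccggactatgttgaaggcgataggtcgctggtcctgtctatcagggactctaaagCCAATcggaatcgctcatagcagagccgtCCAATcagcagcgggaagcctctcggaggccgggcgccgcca

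The windows of the namesakes differ in base composition. Zfp607b lies in a CpG-rich stretch with 29 CpG and 75.2% G+C, while Zfp607a holds 3 CpG and 48.4% G+C. Slid along each other without gaps, the windows matched best at 71 of 217 bases (32.7%). Such a search misses a match broken by a gap, so it does not show how related the windows are. The motif bound by THAP11 (Ronin), a zinc finger factor of ES cells, is the last capital run in the windows of Zfp607b (on the minus strand), Zfp60 and Zfp692. It stands here before a gene that rose and genes that fell. The window of Zfp961 holds CCAAT at 2 places.

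Over the set, the THAP11 motif occurred for 20 of 146 Zfp genes with a window (13.7%). A gene was counted once if any of its windows held the motif. The share was 4.40% for all genes tested that had a window and 1.92% for all genes with a RefSeq window. By call, 2 of 11 higher genes, 5 of 29 lower genes and 13 of 106 uncalled genes held it. The difference between these shares was not tested. The motif was added to the search after some of these windows had been seen. GCATGCGC of NRF1 was found for 7.53% of Zfp genes with a window and 5.25% of all genes tested with one. TGACGTCA, the cyclic AMP response element, was found for 5.48% and 2.99%. CCAAT was found for 50.7% and 40.9%, and the GC box GGGCGG for 52.1% and 64.5%. Each was searched on both strands, and a match is a run of letters and not evidence of binding.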

How the data were processed

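RNA of 3 shChd4 and 3 control samples was hybridised to Illumina MouseWG-6 arrays. The deposited scanner table gives a linear intensity and a detection p-value for 45281 probes per array, per the file headers. GenomeStudio, without a version, is named in the submitters' processing notes. The authors' second table of intensity values is quantile-normalised in appearance (equal minimum and maximum, medians 115.16 to 115.19) and served as an alternative, with the method unstated in the sources.

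Intensities were background-corrected (normexp, parameters from the detection p-values), quantile-normalised with an offset of 16 and log2-transformed by neqc of limma 3.58.1 under R 4.3.3. Of the probes, 34885 have 1 gene symbol in the platform annotation, 18 several and 10378 none; 34807 symbols were matched through Entrez identifiers in the RefSeq table of GRCm38.p6 and 78 kept the older form. A gene is its brightest probe by mean scanner intensity, tested if detected at p under 0.05 on at least 3 arrays. Groups were compared with limma (lmFit, eBayes, group only) and Benjamini-Hochberg adjustment over 9807 genes; calls have adjusted p under 0.05. Log2 differences are shChd4 minus control; levels of different probes are not compared. Array numbers limit the precision. Replicates are numbered in accession order, as names only. The steps were also run on simulated arrays, which took their spread from the control arrays alone. That run does not give the error rates of these data.

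The 12 largest rises and 12 largest falls with separated groups are named, with all measured genes of the role lists, genes near the detection threshold, neighbours and genes whose probes disagree. Zfp707, Zfp869, Zfp334, Zfp12, Zfp661 and Zbtb8os lie outside this rule and were named after their values were seen. The promoter motifs were chosen later, after some windows had been read. The Zfp genes and all lists were chosen with earlier results of these data known. Classes by KRAB domain or finger number were not used here, because no protein sequences were at hand. Promoter windows are from RefSeq (GRCm38.p6). Listed genes absent from the annotation table were not analysed here.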

Additional observations from a re-analysis of the deposited data

How the results depend on the processing

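Over 16 alternatives, from 10 to 20 Zfp genes were higher and 24 to 37 lower. Leaving out each array in turn gave 10 to 16 higher and 24 to 34 lower, and 1600 to 1841 higher and 1287 to 1739 lower among all genes tested. The lowest count of higher genes, 10, came without shChd4 replicate 3 and without control replicate 1, where fewer samples were fitted. No background correction gave 12 and 30, the authors' values 13 and 31, and median scaling 20 and 24. Shares of all genes are given above for median scaling. Without such shares, the counts for the other settings do not show whether Zfp genes moved apart from the whole array. Under every alternative that could test them, 7 of the 16 rises and 16 of the 35 falls were called; in every fit with an array left out, 7 and 18 were. Zfp330 reversed when all detected probes were averaged, to 1.16 (adjusted p = 0.0018), because its second probe gives 2.65. The median of Zfp genes stayed below that of all genes tested in each alternative, from -0.14 to -0.03. No paired analysis was possible because the labels carry no replicate numbers. With 3 arrays per group the number of arrays limits the precision, and the median SE of the Zfp genes that were not called was 0.18.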
